A study of Mus musculus with 22 samples.

Results

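Gene expression in the colon of VC- mice after 7 days of DSS challenge was compared with that of VC- mice before DSS, across all genes. VC- mice (PPAR γ flfl; Villin Cre-) carry the floxed PPAR γ alleles without the recombinase, so that PPAR γ is kept in intestinal epithelial cells, and are the wild-type controls of VC+ mice, which lose it there through Villin Cre. They were given 2.5% DSS in the drinking water for 7 days (4 arrays) or no DSS (day 0, 3 arrays). The study used mice of a mixed FVB/C57BL/6 background and of a C57BL/6 background, and its text does not say which were arrayed. These 7 arrays are 7 of 22 in the series, which also holds VC- mice at day 2 and VC+ mice at the same 3 time points. The sources used here give neither the age of the mice of each array nor whether each array is a separate mouse, and the p-values therefore measure the spread between samples, which may be partly technical.

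Dextran sodium sulfate is a sulfated polysaccharide that damages the colonic epithelium when it is drunk, lets bacteria of the lumen reach the lamina propria, and is a standard model of acute colitis. The response that follows is known to run from epithelial and stromal alarm cytokines through chemokines to the entry of neutrophils and monocytes, together with remodeling of the matrix and, later, regrowth of crypts from their base. The mucosa holds absorptive colonocytes and mucus-secreting goblet cells over a lamina propria of fibroblasts, vessels and leukocytes.

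Signals are given as log2 GC-RMA values, in which background has been subtracted and the arrays normalized together, and differences are day 7 minus day 0 on the log2 scale. One probe set was kept for each gene, and the genes more variable than the median gene were tested with limma at an adjusted p of 0.05 (Benjamini-Hochberg). The label of the samples names colonic mucosa and wild-type epithelial cells. RNA was extracted from homogenized colonic tissue, and the arrays read as whole tissue. Myh11, the myosin heavy chain of smooth muscle, was between 12.20 and 12.96 at day 0, Vil1, an actin-bundling protein of the brush border, between 12.09 and 12.41, and Elavl4, an RNA-binding protein of neurons, between 5.93 and 6.41. Wild-type epithelium thus names the genotype here and not the tissue, and fewer cells of a type and less RNA per cell cannot be told apart in it.

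The 4 day 7 arrays were unlike each other. VC- day 7 arrays correlated with the rest of their own group at a mean of 0.83, 0.743, 0.866 and 0.884 over the genes tested (replicates 1 to 4), against 0.962 to 0.968 for the day 0 arrays. Along the axis from the day 0 mean to the day 7 mean, replicate 1 stood at a median of 45.6% for the genes called higher and 52.5% for the genes called lower, and replicate 2 at 158% and 143%. Replicates 3 and 4 stood close to the day 7 mean. Replicate 2 carried transcripts of the exocrine pancreas, with Prss2, a trypsinogen, at 14.74, and so did day 0 replicate 3 at 13.77, where the other 5 arrays were between 3.59 and 4.07. Fabp6, the bile acid-binding protein of the ileum, was 5.77, 6.19 and 5.99 at day 0 and 6.12, 2.49, 11.41 and 5.11 at day 7, high on replicate 3 alone, and Hoxb13, a homeobox gene of the most distal gut, was 7.29, 9.13 and 9.67 at day 0 and 3.81, 2.86, 3.03 and 9.62 at day 7, low on 3 of 4 arrays of day 7 and on none of day 0. Xist, which females transcribe, was above 8 on 1 day 0 array and on no day 7 array. The arrays with Prss2 signal (above 8) are day 0 replicate 3 and day 7 replicate 2 of VC- mice and day 7 replicate 4 of VC+ mice (11.2). The count of all genes called is given without the arrays with Prss2 signal and with terms for Hoxb13 and Xist, and the counts of the gene lists without the arrays with Prss2 signal. The part of Hoxb13 and Xist in single lists, and of Fabp6 and the other differences between arrays, was not tested.

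**Figure D1:**
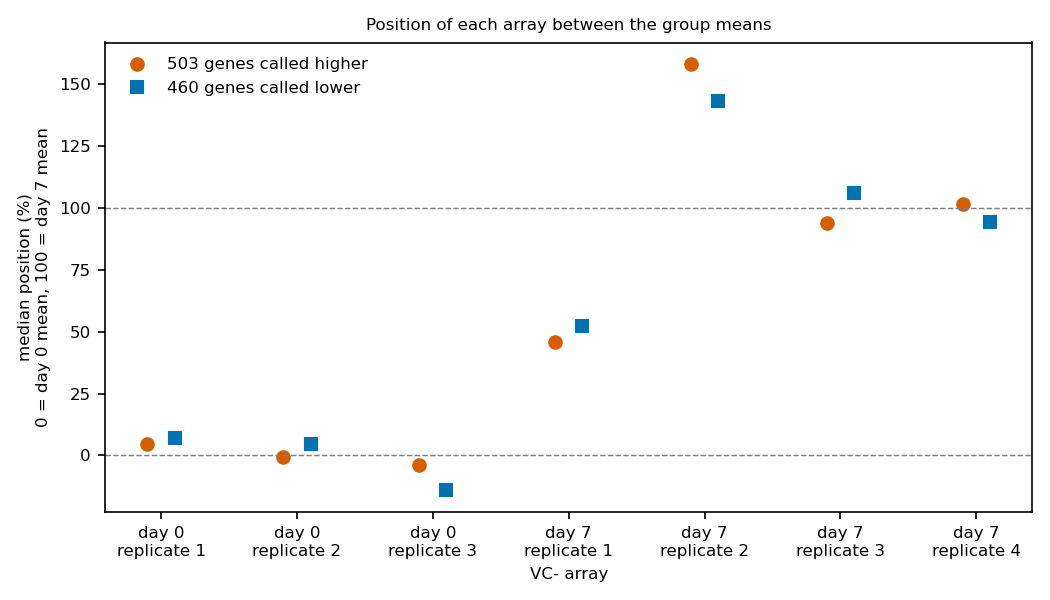
Median position of each VC- array (x axis) on the line from the day 0 mean (0%) to the day 7 mean, over the 503 genes called higher (circles) and the 460 called lower (squares) at day 7. Day 7 replicate 1 sits near the middle of the line at 45.6% and 52.5% and replicate 2 beyond its end at 158% and 143%.

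Of 9097 genes tested, 963 (10.6%) were differentially expressed at day 7. The signals of 503 genes (5.53%) were higher and those of 460 genes (5.06%) lower, with a median difference of 1.65 among the former, -1.22 among the latter and -0.09 over all genes tested. Of the genes called higher, 414 had all 4 day 7 arrays above all 3 day 0 arrays, and of the genes called lower 379 had all of them below. Without adjustment, 2945 genes had a p under 0.05. The counts called in the gene lists below stand beside these shares of 5.53% higher and 5.06% lower over all genes tested. Rises were larger than falls, with 45 genes higher by 4 or more and 191 by 2 or more, against 99 lower by 2 or more. The day 0 mean lay under a log2 signal of 5 for 144 of the genes called higher, and the day 7 mean for 95 of those called lower, so that these differences rest on dim signals. In a test against a difference of 1 in place of 0, 31 genes were higher and 2 were lower.

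The counts rested strongly on single arrays and on the other groups of the fit. Without day 7 replicate 1, 2599 genes were called (1312 higher and 1287 lower), which included 961 of the 963. Without any other array of the 7 the count fell to between 127 (without day 0 replicate 3) and 520 (without day 0 replicate 1), with 384 without day 7 replicate 2, and it was 177 without the arrays with Prss2 signal, of which 138 were higher. A fit to the 7 arrays alone, where the spread of day 7 is not shared with the more uniform groups, called 3 genes, Saa3 and Ccl8, which were higher, and Thrsp, a regulator of fat synthesis that was 7.23, 6.70 and 7.31 at day 0 and 3.45, 3.28, 3.91 and 3.74 at day 7 (difference -3.49). With a term for Hoxb13 525 genes were called and with a term for Xist 633. Of the 183 called genes named here, 60 kept their call without each single array and 123 lost it without at least 1. Where a call was lost in this way, the highest adjusted p among these fits follows the adjusted p with the array left out, and a gene given without its p is named at the end of its paragraph. Without the arrays with Prss2 signal 101 of the 183 genes lost their call, which is not marked for each gene. Under every alternative run for single genes, the fit to the 7 arrays alone included, 2 of the 183 kept it. Thrsp lost its call without at least 1 single array.

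**Figure D2:**
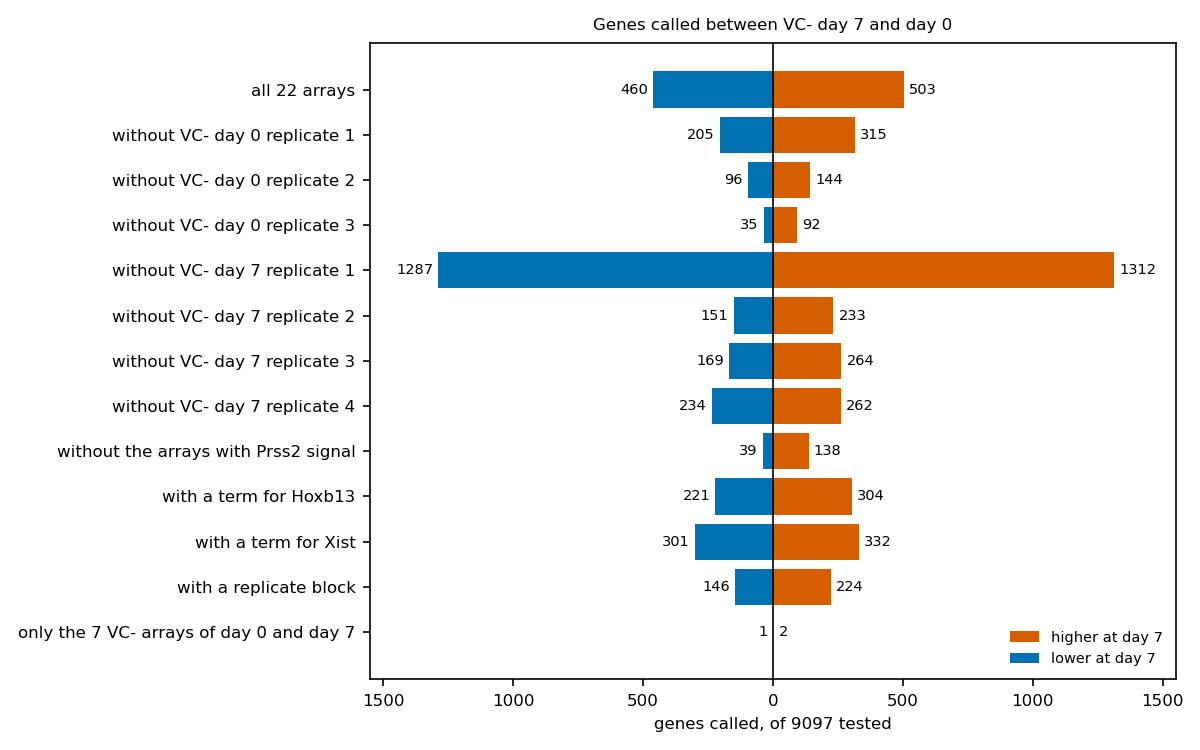
Genes called higher (right) and lower (left) between VC- day 7 and day 0, as numbers of the 9097 genes tested, with all 22 arrays in the fit, without each of the 7 arrays, and under 5 further settings. The bars are longest without day 7 replicate 1 (1312 and 1287) and shortest in the fit to the 7 arrays alone (2 and 1).

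Interleukin-6 signaling through Stat3 is a main arm of the wound response of the gut. Of 10 members of the interleukin-6 family list tested, 7 rose and none fell, with a median difference of 2.06. Il6 itself was 2.16, 2.14 and 2.14 at day 0 and 8.10, 12.87, 7.78 and 9.15 at day 7, so that day 0 lay at the floor of the scale and all 4 day 7 arrays far above it (difference 7.33 ± 0.95 SE, limma adjusted p = 0.000441). Socs3, the feedback inhibitor that Stat3 induces, was 2.18, 2.10 and 2.10 at day 0 and 7.11, 10.91, 7.40 and 8.35 at day 7 and had the smallest adjusted p of all genes tested (difference 6.31 ± 0.60, adjusted p = 2.26e-05). Il11, a cytokine of fibroblasts that signals through the same receptor subunit, was 3.25, 3.19 and 3.24 at day 0 and 6.55, 9.34, 7.39 and 8.50 at day 7. The groups did not overlap for any of the 3 genes, and replicate 2 was the highest array for each. Il11 lost its call without at least 1 single array.

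The receptors and transducers of the family were brighter before DSS and rose by less. Osmr, the receptor for oncostatin M, rose by 2.78 (adjusted p = 0.00611), and Stat3, the transcription factor, by 2.25 (adjusted p = 0.00238). Pim1, a kinase gene that Stat3 induces, rose by 1.88, and Il6ra, the ligand-binding receptor chain, by 1.77, although replicate 1 lay within the day 0 range for Il6ra. Without single arrays between 4 (without day 0 replicate 3) and 9 (without day 7 replicate 1) members of this list were called higher, and 6 without the arrays with Prss2 signal. Pim1 and Il6ra lost their calls without at least 1 single array.

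Of 15 genes of the interleukin-1 family and inflammasome 5 rose and none fell (median 0.71). Il1b, the main secreted ligand of macrophages, was 4.61, 3.92 and 3.50 at day 0 and 8.63, 12.55, 6.83 and 11.08 at day 7 (difference 5.76 ± 0.95, adjusted p = 0.00216). Its decoy receptor Il1r2 rose by 4.25, the signaling receptor Il1r1 by 2.83 and the receptor antagonist Il1rn by 2.44. Il33, an alarmin that stromal and epithelial cells keep in their nuclei, was 6.86, 6.62 and 7.50 at day 0 and 9.36, 11.04, 10.17 and 10.60 at day 7, with the narrowest day 7 range of the 5 (difference 3.30, adjusted p = 0.00434). Il18, which the epithelium makes at rest, was 11.20, 11.52 and 11.05 at day 0 and 12.83, 9.46, 12.43 and 13.15 at day 7 and did not pass the test (difference 0.71, adjusted p = 0.484), with replicate 2 below the day 0 arrays and the other three above them. Tnf was not among the variable genes and was between 2.36 and 3.61 at day 7, against 2.35 to 2.52 at day 0. The number called higher was 3 without any day 0 array or day 7 replicate 4, and 5 without any other array or without the arrays with Prss2 signal. The median of the list lay between 0.42 (without day 7 replicate 1) and 1.40 (without day 7 replicate 2). Il1r2 and Il1rn lost their calls without at least 1 single array.

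Chemokines that call in neutrophils rose from the floor of the scale. Cxcl5, made by epithelial and stromal cells, was 3.12, 3.10 and 3.07 at day 0 and 9.75, 14.07, 4.83 and 10.72 at day 7, and replicate 3 was the lowest of the day 7 arrays (difference 6.74 ± 1.33, adjusted p = 0.00675). Cxcl2 was 2.63, 2.60 and 2.60 at day 0 and 7.72, 13.56, 6.19 and 9.14 at day 7, in the same order of arrays (difference 6.54 ± 1.11, adjusted p = 0.00276). Cxcl3 was 3.84, 3.89 and 4.05 at day 0 and 5.97, 12.26, 4.00 and 7.57 at day 7 and did not pass (difference 3.52, adjusted p = 0.0763), with replicate 3 at the level of day 0. Csf3, the growth factor of neutrophils, was 2.75, 2.59 and 2.59 at day 0 and 2.60, 12.11, 2.82 and 2.90 at day 7. It was high on replicate 2 alone, was not among the variable genes and was not tested. Among 14 genes of CC chemokines and their receptors, 4 rose. The monocyte chemokine Ccl2 rose by 4.46 (adjusted p = 0.00794), the eotaxin Ccl11 by 2.16 and the receptor Ccr1 by 1.93. Ccl8, a ligand for monocytes that resident macrophages make, was 8.28, 8.72 and 7.78 at day 0 and 11.22, 11.20, 11.87 and 11.78 at day 7 and had the most uniform day 7 level of the 4 (difference 3.26 ± 0.52, adjusted p = 0.00159). Ccl28, an epithelial chemokine for plasma cells, was 7.83, 7.29 and 7.64 at day 0 and 6.89, 2.61, 6.19 and 6.75 at day 7 and did not pass (adjusted p = 0.13). Of 6 genes of neutrophil chemokines and colony stimulating factors tested 3 were called higher, all 6 without replicate 1, 3 or 4 without any other array, and 3 without the arrays with Prss2 signal. The count of CC chemokines was 2 without day 0 replicate 2 or 3 or without the arrays with Prss2 signal, and 5 without day 7 replicate 3. Ccl11 and Ccr1 lost their calls without at least 1 single array.

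Of 18 genes of tumor necrosis factor and NF-κB feedback, 11 rose and none fell (median 1.52). Among the members that rose most are adhesion molecules of activated endothelium. Selp, which lets leukocytes roll on vessels, was 2.04, 2.01 and 2.01 at day 0 and 6.24, 10.20, 4.19 and 6.75 at day 7 (difference 4.82 ± 1.04, adjusted p = 0.0113, 0.0557 without day 0 replicate 3), Vcam1 rose by 3.40 (adjusted p = 0.000855) and Icam1 by 2.47 (adjusted p = 0.0267, 0.0982 without day 0 replicate 3). Regulators of the pathway rose by less, Nfkbiz by 2.21, Nfkbia by 1.72, Zc3h12a by 1.68 and Bcl3 by 1.18. The receptor Tnfrsf1a rose by 1.56 and Tnfrsf1b by 1.48. Tnfaip3, the deubiquitinase A20, was 7.83, 8.76 and 8.99 at day 0 and 8.09, 10.96, 8.49 and 9.52 at day 7 and did not pass (difference 0.74, adjusted p = 0.31). The 11 calls became 2 without day 0 replicate 3, 5 without day 0 replicate 2, 7 without day 7 replicate 2, 13 without day 7 replicate 1 and 6 without the arrays with Prss2 signal. Nfkbiz, Nfkbia, Zc3h12a, Bcl3 and Tnfrsf1b lost their calls without at least 1 single array.

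The promoters of 4 of these genes are shown for a short stretch that NF-κB dimers are known to bind, here searched as GGNNTTTCC on both strands. The sequences are from RefSeq (build GRCm38.p6), run 5′ to 3′ on the strand of the gene each over a window of 300 bases around the start of transcription, and have the matches in capitals. Cxcl1 (chr5:90890995-90891294, plus strand) and its neighbor Cxcl2 (chr5:90903649-90903948, plus strand) each have 2 matches.
Cxcl1: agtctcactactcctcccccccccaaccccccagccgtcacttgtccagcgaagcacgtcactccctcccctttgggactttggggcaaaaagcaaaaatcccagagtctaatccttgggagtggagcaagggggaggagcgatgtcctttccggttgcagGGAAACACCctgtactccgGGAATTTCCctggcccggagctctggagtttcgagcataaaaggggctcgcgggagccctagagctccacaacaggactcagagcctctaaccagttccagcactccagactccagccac
Cxcl2: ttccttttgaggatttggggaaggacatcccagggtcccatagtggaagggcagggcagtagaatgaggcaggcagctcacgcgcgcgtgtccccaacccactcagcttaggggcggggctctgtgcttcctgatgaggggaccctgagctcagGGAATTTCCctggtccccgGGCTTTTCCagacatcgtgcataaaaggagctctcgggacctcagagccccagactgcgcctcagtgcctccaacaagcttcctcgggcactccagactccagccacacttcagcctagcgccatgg
Il6 (chr5:30012864-30013163, plus strand) has 1 match and Nfkbia (chr12:55492598-55492897, minus strand) has 2.
Il6: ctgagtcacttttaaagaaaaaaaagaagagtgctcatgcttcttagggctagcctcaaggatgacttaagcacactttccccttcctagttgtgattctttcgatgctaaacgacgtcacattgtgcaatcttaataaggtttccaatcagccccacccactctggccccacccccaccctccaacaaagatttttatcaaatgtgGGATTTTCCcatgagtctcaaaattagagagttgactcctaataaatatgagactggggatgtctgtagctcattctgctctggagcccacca
Nfkbia: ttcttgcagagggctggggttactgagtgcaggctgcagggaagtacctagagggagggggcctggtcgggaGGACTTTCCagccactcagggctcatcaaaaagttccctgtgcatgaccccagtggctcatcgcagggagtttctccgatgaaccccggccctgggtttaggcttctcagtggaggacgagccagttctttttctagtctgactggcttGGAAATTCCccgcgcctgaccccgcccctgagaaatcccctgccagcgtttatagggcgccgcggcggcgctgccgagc
Promoters were found for 390 of the 503 genes called higher. Of their 500 promoters 39 (7.8%) held a match, against 6.13% of the 9487 promoters of all genes tested, 5.45% of those of the genes called lower and 5.82% of all 32851 promoters of the table. The matches describe letters in these windows and are not measured binding.

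Acute phase proteins, which liver and inflamed mucosa secrete, had the largest median of the lists with over 10 genes tested (4.18), with 9 of 13 genes higher and none lower. Saa3, the serum amyloid A of macrophages and epithelium, was 6.05, 4.23 and 4.31 at day 0 and 12.58, 15.91, 14.62 and 14.73 at day 7. Hp, haptoglobin, was 5.57, 2.55 and 3.10 at day 0 and 7.31, 15.36, 10.60 and 9.52 at day 7 and Ptx3, a secreted pattern receptor, was 3.63, 3.66 and 3.28 at day 0 and 6.93, 12.74, 8.29 and 9.83 at day 7, both without overlap (adjusted p = 0.00479 and 0.0009). Lrg1 rose by 5.11, Serpina3n, a protease inhibitor, by 4.18, the copper carrier Cp by 4.30 and the metalloreductase Steap4 by 3.41. Saa1 and Saa2, which the epithelium makes at rest in response to bacteria, did not pass. Saa1 was 13.69, 12.91 and 12.82 at day 0 and 13.63, 11.88, 14.42 and 14.80 at day 7 (difference 0.55, adjusted p = 0.629), with replicate 2 the lowest of all 7 arrays while it was the highest for Saa3. Between 7 and 10 members were called higher when single arrays were left out, and 9 without the arrays with Prss2 signal. Cp lost its call without at least 1 single array.

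Of 19 antimicrobial proteins of the epithelium 3 (15.8%) were higher and none lower (median 0.42), against 5.53% and 5.06% of all genes tested. Besides Lcn2, which binds bacterial siderophores, these were Chil1, a chitinase-like lectin (5.01, adjusted p = 0.00833), and the lysozyme gene Lyz1 (1.21, adjusted p = 0.0429, 0.134 without day 0 replicate 3). Reg3g, a lectin that kills gram-positive bacteria, was 7.94, 5.89 and 8.94 at day 0 and 14.55, 12.50, 14.71 and 10.04 at day 7, above day 0 on every array, but did not pass (difference 5.36 ± 2.26, adjusted p = 0.115). Reg3b was 9.63, 7.63 and 11.14 at day 0 and 15.19, 15.02, 15.70 and 12.30 at day 7 (difference 5.08 ± 2.11, adjusted p = 0.111). Their day 2 differences were 4.84 and 4.86 (adjusted p = 1 and 1). Ang4, of Paneth-like and goblet cells, was 13.69, 14.12 and 4.27 at day 0 and 8.06, 1.86, 4.94 and 12.64 at day 7, already low on day 0 replicate 3. Pigr, the transporter of IgA, was 14.94, 15.05 and 14.45 at day 0 and 14.77, 10.86, 15.31 and 15.17 at day 7 and was below day 0 on replicate 2 alone. In this list 2 genes were called higher without the arrays with Prss2 signal, and its median was 0.85 without day 7 replicate 4 and near 0 without replicate 3.

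**Figure D3:**
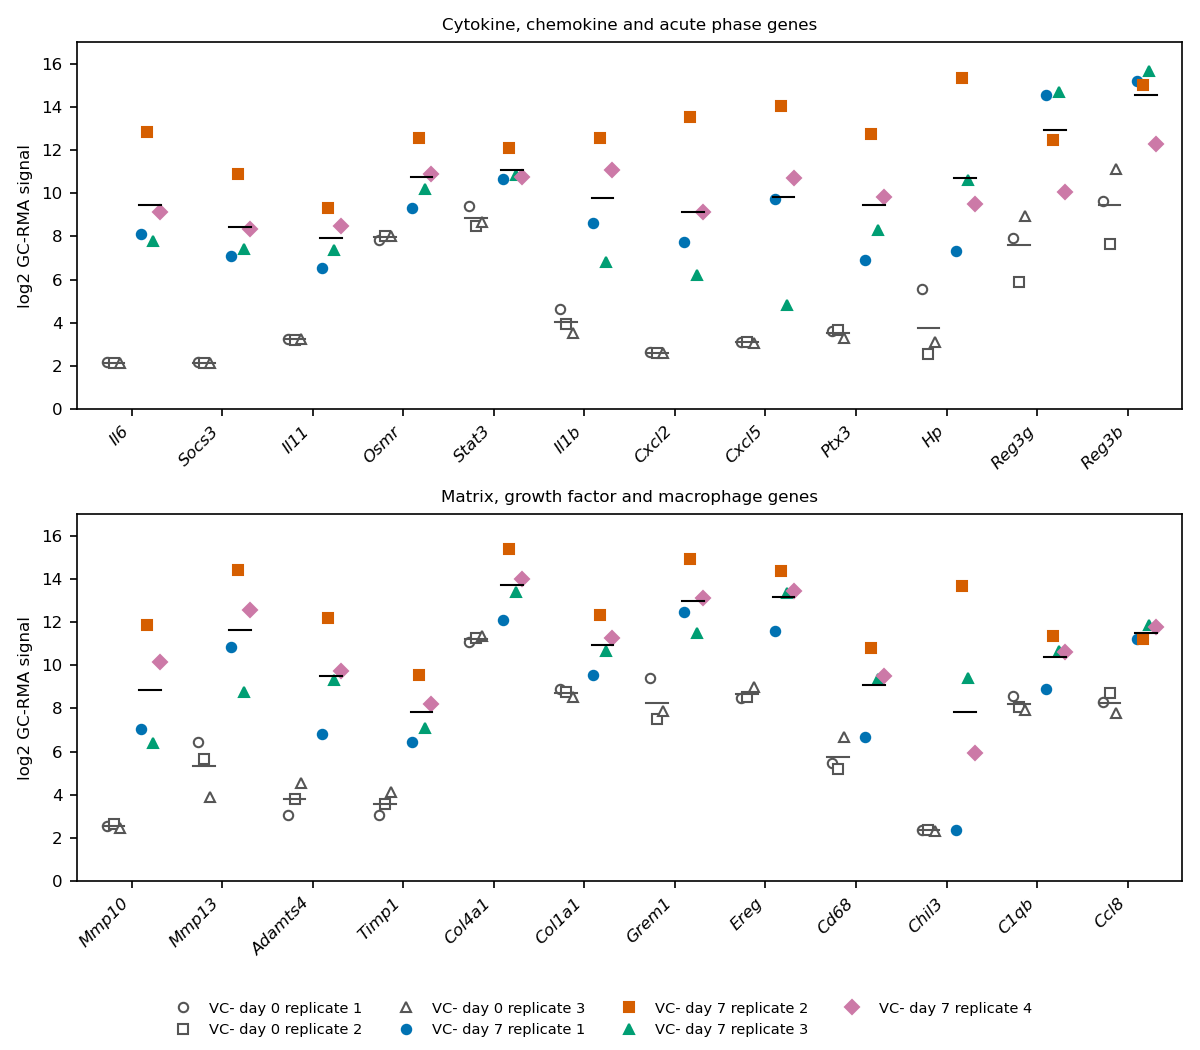
Log2 GC-RMA signals of 24 cytokine, acute phase, matrix, growth factor and macrophage genes (x axis) on the 3 day 0 arrays (open symbols) and the 4 day 7 arrays (filled symbols) of VC- mice, with the group means as bars. Replicate 2 (squares) is the highest day 7 array for most genes and replicate 1 (circles) is often the lowest, as for Chil3, where it sits at 2.35 with day 0.

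Macrophage and monocyte genes rose as a group, 24 of 30 higher and none lower (median 2.18), and all 30 differences were positive. Cd68, a lysosomal membrane protein of macrophages, was 5.46, 5.17 and 6.66 at day 0 and 6.66, 10.78, 9.38 and 9.52 at day 7, with replicate 1 at the upper end of day 0 (difference 3.32 ± 0.70, adjusted p = 0.0101, 0.0503 without day 0 replicate 2). Fcer1g, the signaling chain of Fc receptors, rose by 2.62 (adjusted p = 0.00465), the scavenger receptor Msr1 by 2.64, Csf1r, the receptor that macrophages depend on, by 1.41, and Lyz2 by 1.83. Adgre1, which encodes F4/80, was 8.27, 8.16 and 7.76 at day 0 and 8.16, 9.22, 8.46 and 9.12 at day 7 and did not pass (difference 0.68, adjusted p = 0.113). Chil3, a lectin of alternatively activated and immature monocytes, was 2.35, 2.34 and 2.33 at day 0 and 2.35, 13.70, 9.41 and 5.93 at day 7, spread over nearly the whole scale. Gpnmb, a glycoprotein of lipid-laden macrophages, was 2.63, 2.57 and 2.99 at day 0 and 2.86, 9.54, 7.97 and 8.51 at day 7, at day 0 level on replicate 1 and high on the other three. The number called was 5 without day 0 replicate 3, 7 without day 0 replicate 2, between 13 and 16 without day 0 replicate 1 or day 7 replicate 2, 3 or 4, and 27 without day 7 replicate 1, and 9 without the arrays with Prss2 signal. Csf1r, Lyz2, Chil3 and Gpnmb lost their calls without at least 1 single array.

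Of 14 neutrophil genes 6 rose and 2 fell. Besides S100a8, S100a9 and Hp, the receptor genes Clec4d (4.48, adjusted p = 0.0186, 0.0852 without day 0 replicate 3), Il1r2 and Fpr2, a receptor for bacterial formyl peptides (4.19, adjusted p = 0.0172, 0.0773 without day 0 replicate 3), rose from the floor of the scale. Clec4e, a lectin receptor of neutrophils and macrophages, was 2.04, 2.02 and 2.01 at day 0 and 2.80, 9.92, 2.53 and 4.95 at day 7 and did not pass (adjusted p = 0.137). The genes that fell, Cd177 (-2.12, adjusted p = 0.0372, 0.106 without day 0 replicate 2) and Ceacam10 (-2.97, adjusted p = 0.0347, 0.0991 without day 0 replicate 3), were already bright at day 0, at 10.60 to 11.70 and 12.45 to 13.39. Between 3 (without day 0 replicate 2 or 3) and 7 (without day 7 replicate 1) neutrophil genes were called higher when single arrays were left out, and neither fall was called without any array other than replicate 1. Of the list, 6 were higher and 1 lower without the arrays with Prss2 signal. Cxcr2, a chemokine receptor that marks mature neutrophils, was 2.75, 2.71 and 2.70 at day 0 and 2.72, 4.11, 2.65 and 2.67 at day 7, above the floor on replicate 2 alone, and was not tested, nor was Csf3r, at 4.16 to 4.94 on all day 7 arrays.

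Complement genes made in macrophages and stroma rose, 6 of 15, with none lower (median 1.71). The 3 chains of C1q rose together, C1qa by 2.01, C1qb by 2.19 and C1qc by 2.34, and C1ra, a protease of the same complex, was 8.07, 8.10 and 8.14 at day 0 and 9.25, 12.28, 10.24 and 10.51 at day 7 (difference 2.47 ± 0.53, adjusted p = 0.0112, 0.0541 without day 0 replicate 3). The count became 0 without day 0 replicate 3, 1 without day 0 replicate 2, 3 or 4 without the remaining arrays but replicate 1, and 11 without replicate 1. Without the arrays with Prss2 signal it was 1, and the median of the list was then 1.12, and 1.14 without day 7 replicate 2 alone. C1qa, C1qb and C1qc lost their calls without at least 1 single array.

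The lists of lymphocyte, MHC class I and mast cell genes were short. Over all genes tested 5.53% were called higher and 5.06% lower, so that a short list without calls lies near those shares. None of 9 genes of T cells, 7 of B and plasma cells, 17 of MHC class I and 2 of mast cells passed the test in either direction, although without replicate 1 a T cell gene was called higher and 2 were called lower, 1 was called lower without day 0 replicate 1, and 1 mast cell gene was called lower without day 7 replicate 2. Gzma, a granzyme of intraepithelial lymphocytes, was 6.52, 7.31 and 3.13 at day 0 and 7.53, 3.45, 9.47 and 3.17 at day 7, with both groups spread over much of its range. Jchain, of IgA-secreting plasma cells, was 14.40, 14.54 and 13.56 at day 0 and 14.15, 11.29, 11.94 and 13.95 at day 7 (difference -1.33, adjusted p = 0.242), low on replicates 2 and 3. Of 10 genes of MHC class II presentation 1 rose, the lysosomal protease Lgmn (2.97, adjusted p = 0.00359), and the class II chain H2-Ab1 was 8.07, 7.91 and 6.40 at day 0 and 8.89, 5.71, 7.64 and 9.31 at day 7, high on replicates 1 and 4 and low on replicate 2. The leukocyte marker Ptprc was 8.51, 9.10 and 8.94 at day 0 and 9.29, 10.57, 9.51 and 10.48 at day 7 and did not pass (adjusted p = 0.0811). Of 16 Toll-like receptor genes 4 rose, led by Lbp, which passes endotoxin to its receptor (difference 4.75 ± 0.66, adjusted p = 0.000521), Tlr13 (2.97) and the co-receptor Cd14 (2.28), whereas Tlr4 was 7.03, 5.67 and 6.73 at day 0 and 7.49, 8.38, 6.70 and 6.96 at day 7 and did not pass (adjusted p = 0.226). Their count was 1 without day 0 replicate 3, 2 without day 0 replicate 1 or 2 or day 7 replicate 2 or without the arrays with Prss2 signal, and 7 without day 7 replicate 1. Tlr13 and Cd14 lost their calls without at least 1 single array.

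Enzymes that cut the matrix rose strongly. Of 18 matrix metalloproteinases, relatives and inhibitors 8 rose and none fell (median 2.16). Mmp10, stromelysin-2 of wound edges, was 2.55, 2.65 and 2.44 at day 0 and 7.06, 11.86, 6.41 and 10.14 at day 7 (difference 6.32 ± 1.09, adjusted p = 0.00311), and Mmp13, a collagenase, was 6.44, 5.67 and 3.87 at day 0 and 10.87, 14.45, 8.75 and 12.57 at day 7 (difference 6.33 ± 1.18, adjusted p = 0.0046). Replicate 3 was the lowest day 7 array for both. The aggrecanase Adamts4 rose by 5.71, Adamts1 by 4.51, the inhibitor Timp1 by 4.25 and the gelatinase Mmp2 by 3.38 (adjusted p = 0.0014, 0.0101, 0.00107 and 0.0184, with Mmp2 at 0.0874 without day 0 replicate 3). Mmp8, the collagenase of neutrophils, was 2.23, 2.21 and 2.20 at day 0 and 2.22, 9.76, 2.56 and 3.35 at day 7 and did not pass (adjusted p = 0.277). Cemip, which degrades hyaluronan, was 3.19, 3.24 and 3.23 at day 0 and 7.18, 11.84, 8.16 and 9.39 at day 7 and was among the 15 largest rises (difference 5.92 ± 0.91, adjusted p = 0.00107). The count of this list was 7 or 8 without any array other than replicate 1, 14 without it and 7 without the arrays with Prss2 signal.

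Of 34 collagen and matrix genes 10 rose and none fell (median 1.54). The basement membrane genes Col4a1 (2.50, adjusted p = 0.012, 0.0521 without day 0 replicate 3), Col4a2 (2.50) and Col18a1 (4.12, adjusted p = 0.00101) were among them, as were Col1a1 of interstitial collagen (2.24, adjusted p = 0.0233, 0.103 without day 0 replicate 3), Vcan (2.77), Sparc (1.76) and the growth factor gene Tgfb1 (1.83). Fn1, fibronectin, did not pass (difference 2.22, adjusted p = 0.0535) and Postn of pericryptal fibroblasts was 12.76, 13.25 and 13.26 at day 0 and 12.31, 13.75, 13.47 and 13.45 at day 7. On replicate 1 the median shift of the list from the day 0 mean was 0.06, against 3.39, 1.27 and 1.96 on replicates 2 to 4. The 16 endothelial genes had the same order of arrays (-0.18, 3.33, 1.31 and 1.88), and 3 of them rose, Selp, the venular chemokine binder Ackr1 (1.95) and Tie1 (1.89). Pecam1 was 5.67, 5.01 and 5.61 at day 0 and 5.57, 9.61, 7.25 and 7.62 at day 7 and did not pass (adjusted p = 0.0831). The collagen count became 1 without day 0 replicate 3, 3 without day 0 replicate 2, 5 without day 0 replicate 1 or day 7 replicate 2, and 26 without day 7 replicate 1, and the endothelial count 0 without day 0 replicate 3, 1 or 2 without the other arrays but replicate 1, and 13 without it. Leaving out the arrays with Prss2 signal left 3 collagen and matrix genes and 1 endothelial gene. Col4a2, Vcan, Sparc, Tgfb1, Ackr1 and Tie1 lost their calls without at least 1 single array.

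Single genes rose in 3 lists of crypt signals. Of 23 genes of hedgehog and bone morphogenetic protein signaling 1 rose and 2 fell. Grem1, which blocks bone morphogenetic proteins at the crypt base, rose and was 9.39, 7.51 and 7.90 at day 0 and 12.46, 14.94, 11.51 and 13.10 at day 7 (difference 4.74 ± 0.99, adjusted p = 0.0101, 0.0581 without day 0 replicate 3), and Rspo3, which strengthens Wnt signals, was 6.36, 6.42 and 5.92 at day 0 and 8.34, 10.09, 7.75 and 9.59 at day 7 (difference 2.71 ± 0.58, adjusted p = 0.0112, 0.0709 without day 0 replicate 3). Ereg, a ligand of the epidermal growth factor receptor, was 8.49, 8.52 and 8.97 at day 0 and 11.58, 14.37, 13.35 and 13.44 at day 7 (difference 4.52 ± 0.74, adjusted p = 0.00189). All 4 day 7 arrays lay above day 0 for these 3 genes. Ereg was the only gene called of 13 in its list, where Nrg1, another ligand, was 4.97, 4.72 and 4.52 at day 0 and 5.63, 11.45, 7.44 and 7.67 at day 7 (difference 3.31, adjusted p = 0.0508) and the receptor Egfr differed by 0.63 (adjusted p = 0.182). Without replicate 1, 3 genes of this list were called higher and 1 lower, and Ereg was called without each other array and without those with Prss2 signal. In the hedgehog list no gene was called without day 0 replicate 3 or without the arrays with Prss2 signal.

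Among 23 crypt base and Wnt target genes 7 fell and 1, Rspo3, rose, while 10 differences were positive (median -0.50). The median shift of the list from the day 0 mean was -0.25, -0.48, -1.29 and -0.72 on replicates 1 to 4. Ascl2, the transcription factor of intestinal stem cells, was 6.53, 4.91 and 4.97 at day 0 and 3.37, 3.25, 3.25 and 3.23 at day 7 (difference -2.19 ± 0.42, adjusted p = 0.0055) and was near the floor on all day 7 arrays, where the spread of the signals is compressed. Axin2, a target that reads out Wnt signaling, was 6.71, 6.47 and 5.89 at day 0 and 5.06, 4.85, 4.88 and 4.85 at day 7 (difference -1.45 ± 0.28, adjusted p = 0.00611). Tnfrsf19, a further target gene of the crypt base, was 6.96, 6.21 and 6.15 at day 0 and 4.01, 3.70, 4.59 and 3.97 at day 7 (difference -2.37 ± 0.52, adjusted p = 0.0123). In none of the 3 did a day 7 array reach the day 0 range. Hopx, of slow-cycling and differentiated crypt cells, fell by 2.36, Cdk6 by 1.20, the ubiquitin ligase gene Znrf3 by 1.02 and the guidance receptor Ephb3 by 1.02. Lgr5, the stem cell receptor, was 4.56, 4.55 and 4.11 at day 0 and 3.40, 3.41, 3.11 and 3.11 at day 7 and did not pass (difference -1.15, adjusted p = 0.0799), its dim signals not overlapping. Myc differed by -0.36 and Sox9 by -1.68 (adjusted p = 0.501 and 0.0815). When single arrays were left out, between 4 (without day 0 replicate 1 or 3 or day 7 replicate 3 or 4) and 9 (without day 7 replicate 1) genes of the list were called lower, and 3 without the arrays with Prss2 signal. Its median then lay between -0.14 (without day 7 replicate 3) and -0.83 (without day 0 replicate 2). Hhip, an antagonist of hedgehog ligands that fibroblasts and muscle express, was 7.05, 7.52 and 7.53 at day 0 and 3.82, 3.51, 6.08 and 3.43 at day 7, with replicate 3 between the other day 7 arrays and day 0 (difference -3.16 ± 0.67, adjusted p = 0.0101, 0.0557 without day 0 replicate 3). Id1, a target of bone morphogenetic proteins, fell by 1.86 (adjusted p = 0.0369, 0.122 without day 0 replicate 3), while Bmp4 and Ptch1 differed by 0.85 and -0.04 (adjusted p = 0.272 and 0.945). Cdk6, Znrf3 and Ephb3 lost their calls without at least 1 single array.

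Differentiated epithelium differed from day 0 mainly on replicate 2. Of 25 genes of colonocyte differentiation 1 fell, Hnf4g (-2.27, adjusted p = 0.0291, 0.109 without day 0 replicate 3). Vil1 was 12.33, 12.41 and 12.09 at day 0 and 12.36, 8.46, 12.86 and 12.26 at day 7, Cdx2, the homeobox factor of the hindgut, was 8.98, 9.17 and 9.15 at day 0 and 8.76, 3.61, 7.79 and 8.57 at day 7 and Krt20, a keratin of surface cells, was 14.32, 14.38 and 14.70 at day 0 and 14.06, 11.35, 14.20 and 13.77 at day 7, and none of the 3 passed (adjusted p = 0.407, 0.124 and 0.162). On replicate 2 these genes were lower than on any other array, and on replicates 1, 3 and 4 they were within about 1 unit of the day 0 mean except Cdx2 on replicate 3. The median shift of the list was -3.12 on replicate 2 and -0.10, 0.33 and -0.10 on the others. Tight junction genes followed the same pattern (-3.27 on replicate 2), with 1 of 22 lower, Cldn15, a pore-forming claudin (-2.60, adjusted p = 0.0295, 0.0869 without day 0 replicate 3). The falls of Hnf4g and Cldn15 were called without day 7 replicate 1 or 3 but without no other single array, 3 colonocyte and 4 junction genes were called lower without replicate 1, and no gene of either list without the arrays with Prss2 signal. Cldn2, another pore-forming claudin, was 8.18, 7.00 and 8.44 at day 0 and 7.81, 2.29, 5.71 and 2.46 at day 7 (adjusted p = 0.056). The nuclear-encoded genes of the respiratory chain had 29 of 30 negative differences (median -0.57), none of which passed, and 11 of them passed without replicate 1. Their median was -0.25 without replicate 2 and -0.24 without the arrays with Prss2 signal.

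Goblet cell genes were lower in 5 of 24 and higher in none (median -1.73), with no positive difference. The shift of the list was -4.14 on replicate 2 and -0.40, -0.93 and -0.57 on the others, and its median was -0.62 without replicate 2. Agr3, a protein disulfide isomerase, was 5.02, 3.78 and 4.48 at day 0 and 2.34, 2.29, 2.29 and 2.16 at day 7 (difference -2.16 ± 0.26, adjusted p = 0.000264), with all day 7 arrays at the floor, where the spread is compressed. Creb3l1, Gfi1 and Bcas1 fell by 1.89, 2.06 and 1.89. Spdef, which drives goblet cell maturation, was 10.54, 9.54 and 9.67 at day 0 and 9.29, 2.69, 7.96 and 7.52 at day 7 (difference -3.05, adjusted p = 0.0506), and Atoh1, which sets the secretory fate, was 10.75, 10.05 and 10.23 at day 0 and 9.93, 2.49, 9.43 and 8.63 at day 7 (difference -2.72, adjusted p = 0.11). Both were lower than day 0 on every array and at the floor on replicate 2. Muc2, the main mucin of the colon, had too little variance to be tested and was 15.56, 15.72 and 15.29 at day 0 and 15.59, 12.84, 15.64 and 15.59 at day 7. Of 5 mucins tested 1 fell, the membrane mucin Muc4 (-2.77, adjusted p = 0.0487, 0.142 without day 0 replicate 3), and Tff3, the trefoil factor of goblet cells, was 14.76, 14.63 and 14.74 at day 0 and 14.50, 12.20, 15.69 and 15.79 at day 7 (difference -0.17, adjusted p = 0.854). The goblet cell count became 1 without day 0 replicate 1, 2 or 3 or day 7 replicate 2 or 3, 2 without replicate 4 and 12 without replicate 1. Agr3 was called in each of these fits. Leaving out the arrays with Prss2 signal left 1 goblet cell gene and no mucin gene called lower, and the goblet cell median was -0.74. Creb3l1, Gfi1 and Bcas1 lost their calls without at least 1 single array.

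Enzymes that build mucin glycans and their sugar donors also fell in part. Of 28 enzymes of mucin O-glycans 5 fell and none rose, A4gnt (α1,4-N-acetylglucosaminyltransferase), Galnt5 (-2.88), which starts O-glycans, C1galt1 (-1.41), which builds core 1, and the sialyltransferases St3gal6 (-2.74) and St3gal4 (-2.45). B3gnt6, which builds core 3 of colonic mucin, was 9.53, 9.13 and 10.10 at day 0 and 8.53, 2.32, 4.79 and 3.54 at day 7 and did not pass (difference -4.79, adjusted p = 0.0586). Of 34 enzymes of amino sugars and sialic acid 8 fell and 3 rose, a list that holds genes the study chose on these samples, so that its counts are not independent evidence. Gne, which makes the sialic acid precursor, was 9.98, 9.70 and 10.66 at day 0 and 9.60, 4.09, 7.89 and 8.10 at day 7 (difference -2.69 ± 0.79, adjusted p = 0.0391, 0.155 without day 0 replicate 3), Nanp fell by 1.44, and Gfpt1 and Pgm3, of the route to UDP-N-acetylglucosamine, by 1.65 and 1.71. The genes that rose, Npl (2.32), Gnpda1 (1.34) and Renbp (1.50), break amino sugars down or recycle them. The amino sugar genes called lower were 0 without day 0 replicate 3, 1 to 4 without the other arrays but replicate 1, and 13 without it. The glycan count became 0 without day 7 replicate 2 or 3 or any day 0 array, 3 without replicate 4 and 12 without replicate 1. No gene of either list was called lower without the arrays with Prss2 signal, and 2 amino sugar genes were then called higher. A4gnt, Galnt5, C1galt1, St3gal6, St3gal4, Nanp, Gfpt1, Pgm3 and Renbp lost their calls without at least 1 single array.

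Of 36 ion and solute transporters of colonocytes 4 fell and 1 rose. Slc26a3, which exchanges chloride for bicarbonate, was 12.51, 12.33 and 13.04 at day 0 and 10.51, 6.95, 10.30 and 11.21 at day 7 (difference -2.88 ± 0.89, adjusted p = 0.0452, 0.158 without day 0 replicate 3). The potassium channel genes Kcnn4 and Kcne3, which drive chloride secretion, were 10.56, 10.89 and 11.47 at day 0 and 10.15, 4.99, 7.21 and 7.80 at day 7 and 12.43, 12.28 and 12.06 at day 0 and 11.38, 5.21, 9.30 and 10.10 at day 7, all day 7 arrays being lower (differences -3.44 and -3.26, adjusted p = 0.0101 and 0.0343, with Kcnn4 at 0.0668 and Kcne3 at 0.109 without day 0 replicate 3). Cftr, the chloride channel, fell by 2.45, with replicate 1 within the day 0 range. Clca4b, a chloride channel accessory gene, was 6.05, 5.64 and 9.02 at day 0 and 13.13, 11.42, 12.36 and 11.65 at day 7 and moved the other way (difference 5.24 ± 0.74, adjusted p = 0.000556). Aqp8, the water channel of the colon surface, was 12.88, 13.04 and 13.11 at day 0 and 11.21, 8.74, 5.36 and 11.66 at day 7 (difference -3.77 ± 1.79, adjusted p = 0.153), its range among day 7 arrays exceeding its difference from day 0, and Slc5a8, a butyrate carrier, was 11.81, 12.21 and 11.61 at day 0 and 11.48, 4.84, 11.48 and 11.30 at day 7, low on replicate 2 alone. Transporters called lower were 0 without day 0 replicate 3, 1 or 2 without day 0 replicate 1 or 2 or day 7 replicate 2 or 3, and 6 without day 7 replicate 1. None was called lower and 1 was called higher without the arrays with Prss2 signal. Cftr lost its call without at least 1 single array.

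**Figure D4:**
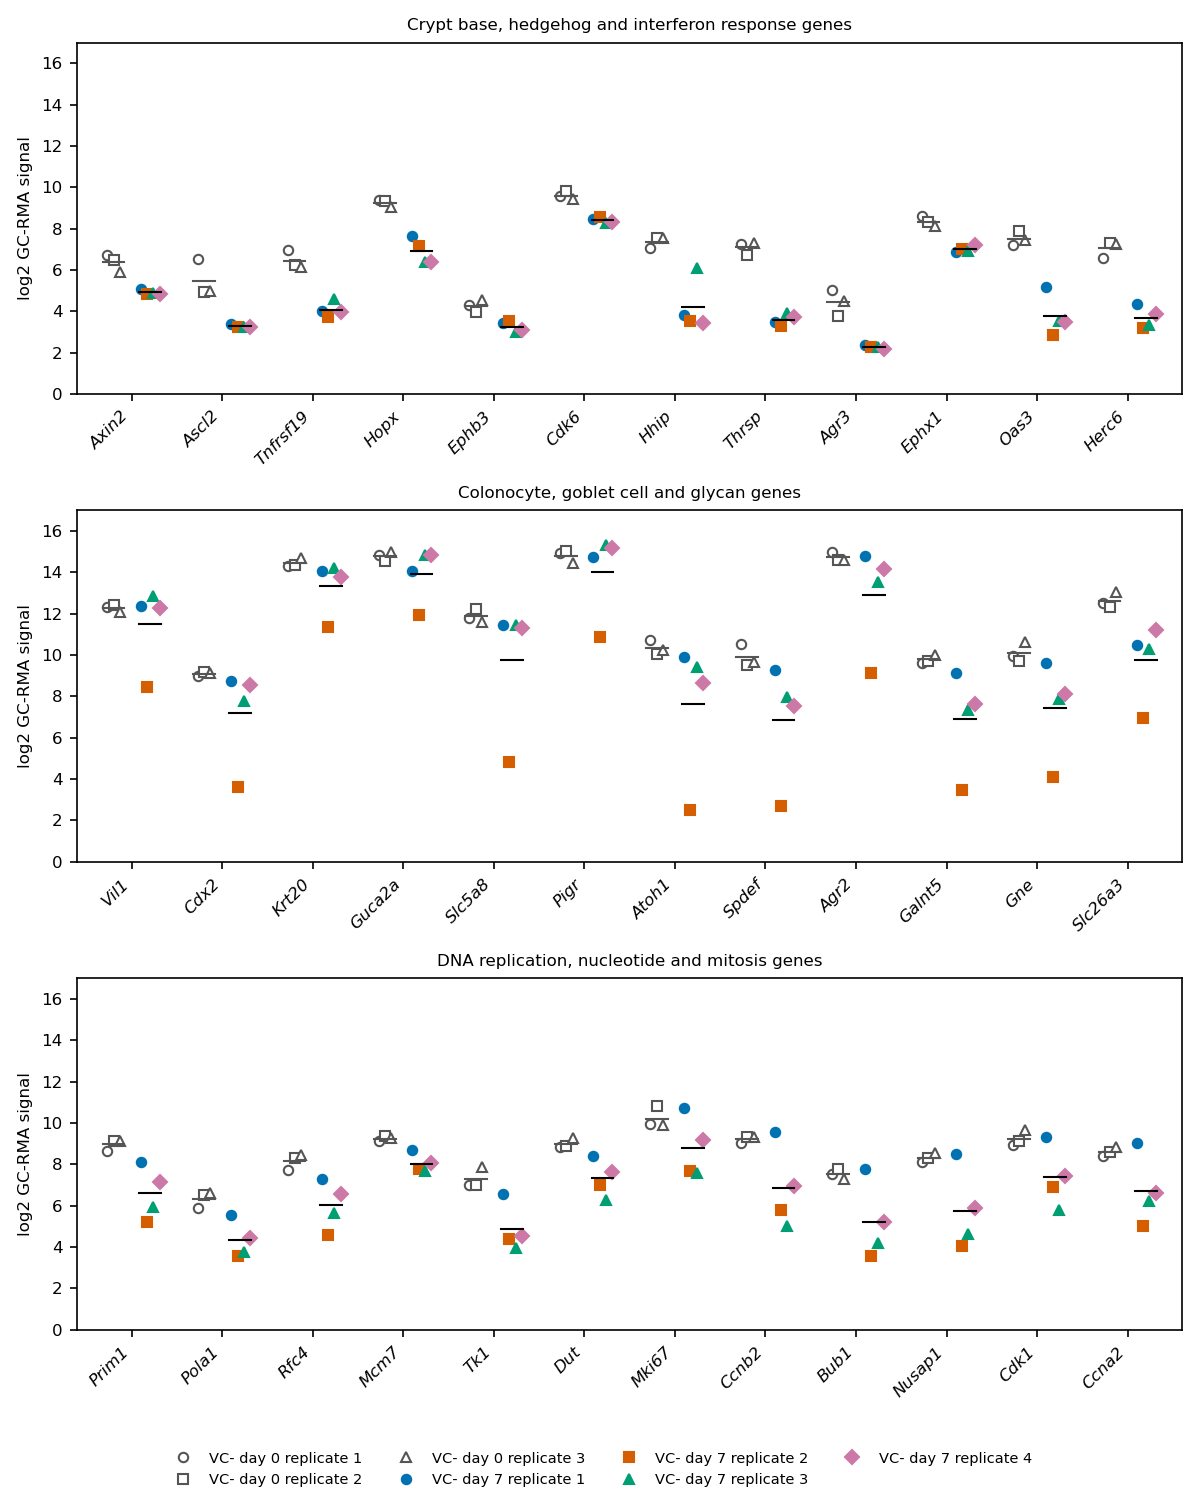
Log2 GC-RMA signals of 36 genes (x axis) in 3 panels, on the 3 day 0 arrays (open symbols) and the 4 day 7 arrays (filled symbols) of VC- mice, with the group means as bars. The crypt base and related genes shown are low on all 4 day 7 arrays, colonocyte genes mainly on replicate 2 (squares), and mitosis genes on replicates 2, 3 and 4 but not on replicate 1 (circles).

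Of 38 genes of DNA replication 14 fell and none rose (median -1.08), in a list that overlaps the genes the study chose on these samples. All 14 calls were lost without the arrays with Prss2 signal, and likewise without day 0 replicate 3. Prim1, the primase that starts each DNA strand, was 8.66, 9.15 and 9.11 at day 0 and 8.14, 5.22, 5.93 and 7.14 at day 7 (difference -2.37 ± 0.56, adjusted p = 0.0175, 0.0869 without day 0 replicate 3). Rfc4, of the clamp loader, was 7.75, 8.32 and 8.47 at day 0 and 7.29, 4.58, 5.63 and 6.56 at day 7 (difference -2.16, adjusted p = 0.0169, 0.0903 without day 0 replicate 3) and Pola1, of polymerase α, was 5.90, 6.53 and 6.61 at day 0 and 5.57, 3.55, 3.75 and 4.45 at day 7 (difference -2.02, adjusted p = 0.0236, 0.107 without day 0 replicate 3). Each was below day 0 on all arrays, least so on replicate 1. Mcm7 of the helicase fell by 1.21 and Pcna, the sliding clamp, by 0.85, while the helicase genes Mcm2, Mcm3, Mcm5 and Mcm6 did not pass (differences -1.44, -1.06, -1.76 and -2.08, adjusted p = 0.108, 0.149, 0.0811 and 0.0517). Of 25 genes of pyrimidine and deoxynucleotide synthesis, again partly chosen by the study, 7 fell and 1 rose. Tk1, thymidine kinase of dividing cells, was 7.01, 7.02 and 7.86 at day 0 and 6.55, 4.38, 3.95 and 4.56 at day 7 (difference -2.44 ± 0.61, adjusted p = 0.024, 0.118 without day 0 replicate 3), and Dhodh, Dut, Rrm1 and Umps fell by 1.74, 1.66, 1.52 and 1.12. Ctps, which makes CTP, was 8.43, 8.59 and 8.31 at day 0 and 10.28, 12.34, 10.09 and 10.89 at day 7 above day 0 on every array (difference 2.46, adjusted p = 0.00359). The pyrimidine genes called lower were 1 without day 0 replicate 2 or 3, 3 to 5 without the other arrays but replicate 1, 10 without it and 1 without the arrays with Prss2 signal. Mcm7, Pcna, Dut, Rrm1 and Umps lost their calls without at least 1 single array.

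Mitosis genes separated replicate 1 from the rest. Their median shift from the day 0 mean was 0.39 on replicate 1 and -2.71, -3.24 and -1.59 on replicates 2 to 4. Of 34 genes 4 fell, Ccnb2, Bub1, Spc25 and Nusap1, no gene rose, and all 34 differences were negative, but no gene had its 4 day 7 arrays all below day 0. Ccnb2, cyclin B2, was 9.05, 9.33 and 9.30 at day 0 and 9.58, 5.80, 5.02 and 6.95 at day 7 (difference -2.39 ± 0.72, adjusted p = 0.0429, 0.142 without day 0 replicate 3). Mki67, the proliferation antigen, was 9.95, 10.81 and 9.90 at day 0 and 10.71, 7.68, 7.57 and 9.20 at day 7 (difference -1.43, adjusted p = 0.13). In both, replicate 1 was within or above the day 0 range and the other 3 arrays below it. Without replicate 1, 33 of 34 mitosis genes and 26 replication genes were called lower, and without any other single array no mitosis gene and between 0 (without day 0 replicate 3) and 10 (without day 0 replicate 1) replication genes. No mitosis gene was called without the arrays with Prss2 signal either. Among 35 genes of the p53 pathway and apoptosis, some chosen by the study on these samples, 3 rose and 6 fell. Gadd45b, a stress gene, rose by 1.61, Chek2, a checkpoint kinase gene, fell by 0.99 (adjusted p = 0.00919, 0.0604 without day 0 replicate 3), and the p53 targets Cdkn1a and Mdm2 did not pass (differences -0.44 and -0.41, adjusted p = 0.34 and 0.215; a further probe set of Mdm2 had the opposite sign, 0.12). The genes called lower were 0 without day 0 replicate 2 or 3, 1 or 2 without the other arrays but replicate 1, and 8 without it, and those called higher were 0 or 1 without any array but replicate 1. No p53 or apoptosis gene was called without the arrays with Prss2 signal. Bub1, Spc25, Nusap1 and Gadd45b lost their calls without at least 1 single array.

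The promoters of 3 replication genes are shown for the stretch that E2F factors of the cell cycle are known to bind, searched as TTTCCCGC or TTTGGCGC on both strands and given in capitals. They are from RefSeq (build GRCm38.p6) and run 5′ to 3′ on the strand of the gene, Mcm7 at chr5:138171834-138172133 (minus strand), Pola1 at chrX:93632106-93632405 (minus strand) and Rfc3 at chr5:151651159-151651458 (minus strand).
Mcm7: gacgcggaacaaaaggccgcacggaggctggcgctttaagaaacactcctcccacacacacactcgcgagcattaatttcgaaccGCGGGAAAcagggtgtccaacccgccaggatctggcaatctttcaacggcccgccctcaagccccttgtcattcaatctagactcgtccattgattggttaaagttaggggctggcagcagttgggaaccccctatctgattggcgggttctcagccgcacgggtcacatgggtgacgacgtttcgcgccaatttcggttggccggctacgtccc
Pola1: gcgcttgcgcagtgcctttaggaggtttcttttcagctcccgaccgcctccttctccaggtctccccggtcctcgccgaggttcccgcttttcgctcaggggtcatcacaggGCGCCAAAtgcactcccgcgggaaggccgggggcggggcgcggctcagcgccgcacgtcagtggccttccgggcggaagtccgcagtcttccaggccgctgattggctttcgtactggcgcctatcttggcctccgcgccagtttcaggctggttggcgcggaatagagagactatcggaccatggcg
Rfc3: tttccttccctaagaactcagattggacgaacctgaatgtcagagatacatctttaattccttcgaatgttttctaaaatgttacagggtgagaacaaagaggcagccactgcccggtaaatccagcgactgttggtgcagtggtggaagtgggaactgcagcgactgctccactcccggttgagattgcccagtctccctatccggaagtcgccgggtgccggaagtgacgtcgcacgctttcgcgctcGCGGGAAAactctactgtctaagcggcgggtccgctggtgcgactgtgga
Each window holds 1 match, and a further promoter of Mcm7 in the table holds none. Rfc3, of the clamp loader, fell by 1.25. Of the 495 promoters of genes called lower 26 (5.25%) held a match, against 13 of 500 (2.6%) for genes called higher, 2.68% for all genes tested and 1.56% for all promoters. The search describes letters and not binding. Rfc3 lost its call without at least 1 single array.

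Most interferon response genes had lower signals at day 7. Of 29 genes tested 3 fell and 2 rose, 25 differences were negative (median -1.73), and for 17 genes all day 7 arrays lay below day 0, where this held for 1121 of all 9097 genes. Oas3, an antiviral synthetase, was 7.18, 7.87 and 7.45 at day 0 and 5.19, 2.83, 3.52 and 3.45 at day 7 (difference -3.75 ± 1.17, adjusted p = 0.0474, 0.143 without day 0 replicate 3), and Oas2 and Xaf1 fell by 2.37 and 2.30 (adjusted p = 0.0185 and 0.0454, with Oas2 at 0.0962 and Xaf1 at 0.165 without day 0 replicate 3). Rsad2, viperin, was 7.76, 7.94 and 9.18 at day 0 and 5.71, 5.45, 5.60 and 5.62 at day 7 and Irf7, the factor that amplifies the response, was 9.90, 9.52 and 9.50 at day 0 and 8.13, 4.81, 8.19 and 8.26 at day 7, neither of which passed (adjusted p = 0.0784 and 0.121). Herc6 and Ifit1bl2, 2 of the 15 largest falls, belong to the same response and changed by -3.35 and -3.07. The genes that rose, Ifitm1 (3.78, adjusted p = 0.00107) and Ifitm3 (1.54, adjusted p = 0.0105), are membrane proteins that respond to several cytokines. Cxcl9, a chemokine that interferon-γ induces, was 4.61, 7.06 and 4.45 at day 0 and 9.29, 2.89, 3.42 and 4.40 at day 7, and Gbp2, a guanylate-binding protein, was 10.60, 11.60 and 10.84 at day 0 and 12.62, 10.21, 9.67 and 10.77 at day 7, both highest on replicate 1, and neither passed. The median shift of the list was -1.04 on replicate 1 and -2.96, -1.45 and -1.39 on the others. Between 0 and 1 genes were called lower when any array but replicate 1 was left out, and 11 without replicate 1. Without the arrays with Prss2 signal none was called lower and 2 higher, and the median of the list was -1.13, and -1.15 without replicate 2 alone. Herc6 and Ifit1bl2 lost their calls without at least 1 single array.

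**Figure D5:**
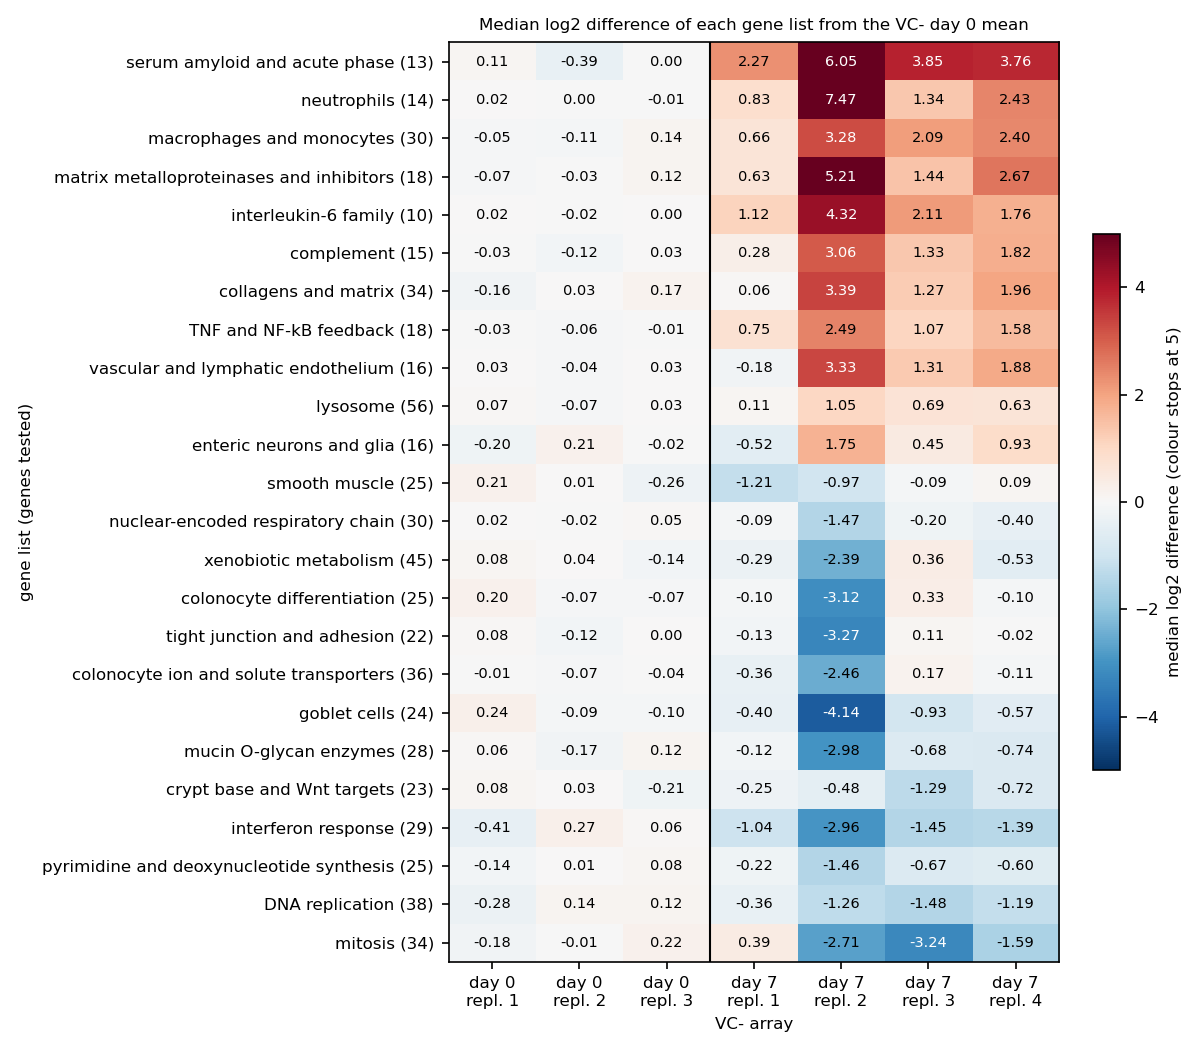
Median log2 difference from the VC- day 0 mean for 24 gene lists (rows, with the number of genes tested) on each of the 7 VC- arrays (columns), in red where positive and blue where negative. Immune and matrix lists are highest and most epithelial lists lowest on day 7 replicate 2, and mitosis is positive (0.39) on replicate 1 and negative on the other day 7 arrays.

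Lysosomal genes rose by small amounts, 18 of 56 higher and 2 lower (median 0.59), in a list partly chosen by the study on these samples. Besides Cd68 and Lgmn, the proteases Ctsb (1.70), Ctsd (1.46) and Ctsc (1.29), the glycosidases Gusb (1.17), Hexa (0.75), Man2b1 (0.82) and Manba (0.80), and the membrane protein Lamp1 (0.62) were higher. Gusb was 8.31, 8.23 and 8.31 at day 0 and 8.85, 10.10, 9.31 and 9.57 at day 7, without overlap (adjusted p = 0.00988). The 2 that fell, Ap3m1 (-1.47) and Ap1s3 (-2.09), are subunits of adaptors that sort proteins to the lysosome. The number called higher was 3 without day 0 replicate 3, 5 without day 0 replicate 2, 8 to 10 without the other arrays but replicate 1, and 28 without day 7 replicate 1. It was 5 without the arrays with Prss2 signal, where no gene was called lower. Ctsb, Ctsd, Ctsc, Hexa, Man2b1, Manba, Lamp1, Ap3m1 and Ap1s3 lost their calls without at least 1 single array.

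Of 25 oxidant-producing and antioxidant enzymes 5 rose, and of 21 genes of iron, metallothioneins and zinc 4 rose, with none lower in either. The phagocyte oxidase subunits Cyba (1.51, adjusted p = 0.00359), Ncf4 (1.84) and Ncf1 (1.39) were higher, the catalytic chain Cybb did not pass (difference 1.16, adjusted p = 0.124), and Hmox1, which degrades heme, was 4.03, 4.05 and 4.00 at day 0 and 4.74, 10.28, 6.42 and 6.57 at day 7 (difference 2.98 ± 0.83, adjusted p = 0.0346, 0.118 without day 0 replicate 3). Mt2, a metallothionein, was 7.97, 8.22 and 11.81 at day 0 and 10.66, 15.18, 13.18 and 13.09 at day 7, with day 0 replicate 3 within the day 7 range (difference 3.69, adjusted p = 0.0292, 0.11 without day 0 replicate 2). Ptgs2, the inducible cyclooxygenase, rose by 2.54 (adjusted p = 0.0397, 0.143 without day 0 replicate 3), while Ptger4, a receptor for its product prostaglandin E2, was 7.55, 6.76, 6.87 and 7.28 at day 7, below the lowest day 0 array (8.43) each time (difference -1.52 ± 0.27, adjusted p = 0.00359). Pfkfb3, an activator of glycolysis, rose by 2.48 and Egln3, an oxygen sensor, by 1.63, but Ldha and Vegfa differed by 0.30 and -0.31 (adjusted p = 0.365 and 0.309). Nfil3, a transcriptional repressor grouped here with the clock, was 4.77, 3.87 and 4.60 at day 0 and 6.66, 10.19, 8.40 and 8.37 at day 7 (difference 3.99 ± 0.70, adjusted p = 0.0033), whereas Arntl, a core clock gene, differed by -0.33 (adjusted p = 0.716). Oxidant genes called higher were 1 to 3 and iron genes 1 to 3 without any single array other than replicate 1, and 10 and 7 without it. They were 2 and 3 without the arrays with Prss2 signal. Ncf4, Ncf1, Pfkfb3 and Egln3 lost their calls without at least 1 single array.

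Pparg, which encodes the nuclear receptor PPAR γ that VC- mice keep, was 9.63, 9.58 and 9.61 at day 0 and 9.82, 7.39, 8.38 and 8.57 at day 7 (difference -1.07 ± 0.79, adjusted p = 0.352), above day 0 on replicate 1 and below it on the other three. In VC+ mice its signal was 8.62, 8.50 and 8.83 at day 0 and 10.35, 10.08, 8.545 and 6.264 at day 7. The signal was thus present in both genotypes, and whether it follows the deletion was not tested. Of 32 PPAR receptors, targets and genes of fatty acid oxidation 2 (6.25%) rose, near the 5.53% of all genes tested, and none fell. The genes that rose were Angptl4, a lipase inhibitor (3.18, adjusted p = 0.0317, 0.104 without day 0 replicate 2), and Plin2, a lipid droplet coat (1.10, adjusted p = 0.0307, 0.15 without day 0 replicate 3). Fabp2, a fatty acid carrier, was 14.29, 14.34 and 13.64 at day 0 and 13.26, 8.30, 12.51 and 11.44 at day 7 (difference -2.71, adjusted p = 0.0582), all day 7 arrays being below day 0. None of 23 genes of cholesterol and fatty acid synthesis passed, and 6 were called lower without replicate 1. Of 45 genes of xenobiotic metabolism 2 (4.44%) fell, near the 5.06% of all genes tested. They were Sult1a1, a sulfotransferase (-2.68, adjusted p = 0.0291, 0.093 without day 0 replicate 3), and Ephx1, an epoxide hydrolase that was 8.59, 8.29 and 8.13 at day 0 and 6.89, 7.01, 6.92 and 7.22 at day 7 (difference -1.33 ± 0.23, adjusted p = 0.00311). Angptl4 and Plin2 were both called without replicate 1, and neither was without day 0 replicate 2 or 3 or day 7 replicate 2 or 3. Of the xenobiotic genes 1 to 3 were called lower without any single array other than replicate 1 and 5 without it. In the fit without the arrays with Prss2 signal, 1 gene of the PPAR list was called higher and 2 xenobiotic genes lower.

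Muscle and nerve genes differed between the day 7 arrays. Of 25 smooth muscle genes 3 fell, Smpx, Synpo2 (-3.64, adjusted p = 0.0218, 0.0802 without day 0 replicate 2) and Pln, the regulator of the calcium pump, which was 9.32, 9.79 and 8.86 at day 0 and 5.41, 5.23, 7.16 and 7.48 at day 7 (difference -3.01, adjusted p = 0.0281, 0.0943 without day 0 replicate 2). The contractile genes Myh11 (12.63, 12.96 and 12.20 at day 0 and 11.55, 11.88, 13.14 and 12.78 at day 7), Tagln and Acta2 did not pass (adjusted p = 0.629, 0.629 and 0.576). The median shift of the list was -1.21 and -0.97 on replicates 1 and 2, against -0.09 and 0.09 on replicates 3 and 4. Neuronal and glial genes had shifts of -0.52, 1.75, 0.45 and 0.93, and 1 of 16, Prph, rose (2.25, adjusted p = 0.0369, 0.155 without day 0 replicate 3). The call of Prph was lost without any array other than replicate 1. Smooth muscle genes called lower were 1 without day 0 replicate 2 or 3 or day 7 replicate 2, and 3 without day 7 replicate 1, 3 or 4. Without the arrays with Prss2 signal 1 smooth muscle gene and no neuronal gene was called. Their part in the differences of the other lists was not tested.

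Compared with VC+ mice, whose epithelium lacks PPAR γ, no gene's day 7 response differed between the genotypes in limma's interaction test (0 of 9097 genes, 0%), where 771 reached an unadjusted p under 0.05, and with array quality weights 792 were called. Each genotype was set against its own day 0 arrays, and the values are given side by side. Socs3 changed by 6.31 in VC- and 6.06 in VC+ mice, Il6 by 7.33 and 7.63, Ascl2 by -2.19 and -2.09, and Ephx1 by -1.33 and -1.39. The proliferation lists had medians of opposite sign, with -1.08 and 0.31 for DNA replication and -1.85 and 0.47 for mitosis. The study's tables, to which Prim1, Ccnb2 and other replication genes belong, hold genes chosen on these arrays for a change in VC- and not in VC+ mice, so that this contrast is not independent evidence. The difference between genotypes was -1.86 ± 0.79 for Prim1 and -2.62 ± 1.02 for Ccnb2 (adjusted p = 0.58 for both), and for Agr3, with the smallest adjusted p of the interaction, it was -2.04 ± 0.36 (adjusted p = 0.195), its signal in VC+ mice being near the floor at day 0 already. At day 2 VC- mice had differed from day 0 in 1 gene, Agr3. The day 2 differences were 0.01 for Il6, 0.37 for Socs3 and 0.17 for Mmp10, all near the floor. Other genes of the largest rises differed either way, Saa3 by 3.44, Mmp13 by 1.60, Lcn2 by -0.56 and Hp by -0.63. The differences were -1.28 for Ascl2, -0.80 for Axin2 and -2.06 for Agr3. Of all these only that of Agr3 was called at day 2, so they give no order of events. The day 2 and day 7 differences share the day 0 arrays.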

How the data were processed

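RNA from the colon of VC- and VC+ mice before and after 2 or 7 days of DSS was hybridised to 22 Affymetrix mouse genome arrays, 1 sample each. The deposited values are log2 signals that the authors made with GC-RMA (gcrma, R 2.10.1), which corrects for background by probe sequence and normalizes arrays to each other. Such values compress dim signals at a floor, so differences from the floor depend on the background model. The array medians lay between 3.41 and 3.55.

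Of 45101 probe sets, 34958 carry 1 gene symbol in the platform annotation and 10143 were not used. Each of 18194 genes was represented by its probe set of largest interquartile range over the 22 arrays, and the 9097 genes above the median of that range were tested, after the variance filter of the study's methods. Means of the 6 groups of genotype and day were fitted with limma 3.58.1 (R 4.3.3; lmFit, contrasts.fit, eBayes), with Benjamini-Hochberg adjustment over all genes tested and a call at an adjusted p under 0.05. The spread is shared by all 22 arrays. Precision is limited by the number of arrays.

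The comparison, its members and the 58 gene lists were chosen with earlier results of these data known. Genes named were taken from the 15 largest rises and falls without overlap of the arrays, the key members of each list, its 4 called members that changed most and the genes of the study's pathway tables, which the study chose on these samples. This rule gives 537 genes, and the text names only part of them. Some of the 15 largest rises and of the 15 largest falls are not named, the largest fall among them. Adamts1, Cbs, Cd177, Cdo1, Ceacam10, Cebpb, Cebpd, Cftr, Col4a2, Cth, Cyp7b1, Dio2, Fpr2, Gusb, Ifitm3, Igfbp4, Igfbp5, Il4ra, Il6ra, Lgi2, Msr1, Myb, Odc1, Pim1, Ptprc, Sphk1, Tgm2, Tnfrsf1a, Wnt5a, Zc3h12a and Znrf3 were chosen after their values were seen. Promoters are from the RefSeq table (GRCm38.p6). Alternatives were the arrays in the fit, the variance filter, a filter on dim genes, the choice of probe set, renormalization, array weights, moderation, the replicate number as a block, terms for Hoxb13 and Xist, a test against a log2 fold change of 1, and the omission of single arrays or of those with Prss2 above 8. Of the called genes 408 had a further probe set with a mean signal of 5 or more, and in 30 of them at least 1 such probe set differed in the other direction. Replicate numbers were checked by the correlation of deviations from the group means. It was above 0.1 for 18 of 48 pairs of arrays with the same number and for 36 of 152 pairs with other numbers. The mean correlations were 0.084 and -0.027. For VC- day 0 with VC- day 7 it was 0.123, -0.062 and -0.112 (replicates 1 to 3), so the numbers were not taken to pair samples. Whether arrays of the same number share a batch was not tested.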

Additional observations from a re-analysis of the deposited data

Results flagged for a closer look

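Of the 253 genes named, 22 had 1 of the 4 VC- day 7 arrays standing apart from the other three. Chance alone gives about 1 such gene in 20 where genes are independent and chosen without sight of their values. The genes here were named with results of these data known and were measured on the same arrays. Their number therefore cannot be compared with that rate. Replicate 2 was the array apart for 15 of the 22. Replicate 1 stood apart for Ascl2 at 3.37 (3.23 to 3.25 on the others) and Axin2 at 5.06 (4.85 to 4.88 on the others). Replicate 2 stood apart for Ccl28 at 2.61 (6.19 to 6.89 on the others), Csf3 at 12.11 (2.60 to 2.90 on the others), Ctsc at 13.71 (12.33 to 12.49 on the others) and Cxcr2 at 4.11 (2.65 to 2.72 on the others). It also did so for Irf7 at 4.81 (8.13 to 8.26 on the others), Krt20 at 11.35 (13.77 to 14.20 on the others), Lrg1 at 11.90 (7.73 to 8.32 on the others) and Mmp8 at 9.76 (2.22 to 3.35 on the others). Further such genes were Muc2 at 12.84 (15.59 to 15.64 on the others), Nfkbiz at 10.14 (8.04 to 8.09 on the others), Pigr at 10.86 (14.77 to 15.31 on the others) and Prss2 at 14.74 (3.59 to 4.06 on the others). The remaining genes with this array apart were Slc5a8 at 4.84 (11.30 to 11.48 on the others), Stat3 at 12.09 (10.69 to 10.86 on the others) and Vil1 at 8.46 (12.26 to 12.86 on the others). Replicate 3 stood apart for Bcl3 at 8.54 (9.42 to 9.56 on the others), Hhip at 6.08 (3.43 to 3.82 on the others) and Tnfrsf1b at 7.41 (8.12 to 8.26 on the others). Replicate 4 stood apart for Hoxb13 at 9.62 (2.86 to 3.81 on the others) and Tnf at 3.61 (2.36 to 2.39 on the others). No explanation was tested.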

How the results depend on the processing

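The 963 genes called at day 7 became 3 in the fit to the 7 VC- arrays, 580 with no variance filter, 2223 with array quality weights, 525 with a term for Hoxb13, 633 with a term for Xist, 177 without the arrays with Prss2 signal and 33 in a test against a log2 fold change of 1. The omission of single arrays gave 127 to 2599. A filter on dim genes, another choice of probe set, a second quantile normalization, centring of the arrays and trended, robust moderation gave 1039, 866, 927, 931 and 977. With the replicate block 370 genes were called (362 of them among the 963), although the replicate numbers were not taken to pair the samples. Of the 183 called genes named in the text, 181 lost their call under at least 1 of the alternatives run for single genes and 2 kept it under all. None of the 183 changed sign. They were chosen as called on these arrays, most of which every alternative shares, so that a kept sign is little evidence. For the difference between genotypes, limma called 0 genes (771 at an unadjusted p under 0.05), 1 with no variance filter, 792 with array quality weights, 1 with the Hoxb13 term, 0 to 17 without single arrays (17 without day 7 replicate 1), and 0 with the replicate block, with the 14 arrays of days 0 and 7 or without the arrays with Prss2 signal (751, 599 and 338 at an unadjusted p under 0.05). The causes of these changes were not tested. Signals near the floor, where the day 0 mean of 144 genes called higher lay, limit the size of their differences.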

Other observations

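Other called genes, chosen after their values were seen, belong to none of the lists. Igfbp5 and Igfbp4, which bind insulin-like growth factors, were above day 0 on every array and rose by 4.69 and 4.45 (limma adjusted p = 0.00131 and 0.000475). Igfbp5 was 8.69, 7.55 and 8.74 at day 0 and 10.66, 15.09, 13.57 and 12.76 at day 7. Lgi2, a secreted leucine-rich repeat protein, was 6.77, 6.67 and 5.29 at day 0 and 10.03, 14.11, 10.89 and 11.27 at day 7 (difference 5.33 ± 0.77, adjusted p = 0.000696), with all day 7 arrays above day 0. Dio2, the deiodinase that activates thyroid hormone, was 2.44, 2.39 and 2.44 at day 0 and 4.61, 13.36, 6.39 and 8.45 at day 7, a rise that ran from little above the floor on replicate 1 to a bright signal on replicate 2 (difference 5.78 ± 1.49, adjusted p = 0.0256, 0.0974 without day 0 replicate 3). Cyp7b1, which hydroxylates oxysterols, and Sphk1, which makes sphingosine 1-phosphate, rose by 5.07 and 4.47 (adjusted p = 0.0123 and 0.0123, with Cyp7b1 at 0.0604 and Sphk1 at 0.0557 without day 0 replicate 3). The transcription factor genes Cebpb and Cebpd rose by 3.73 and 3.33, Il4ra, the receptor for interleukins 4 and 13, by 2.49, and Wnt5a, a stromal Wnt ligand, by 2.35 (adjusted p = 0.014, 0.00434, 0.000441 and 0.0171, with Cebpb at 0.0712 and Wnt5a at 0.0852 without day 0 replicate 3). Tgm2, a transglutaminase that crosslinks matrix, was 9.56, 9.26 and 8.80 at day 0 and 10.94, 11.53, 11.13 and 11.28 at day 7, within a narrow day 7 range above day 0 (difference 2.02 ± 0.31, adjusted p = 0.00116).

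Among the genes that fell, Cbs and Cth, which make cysteine from homocysteine, fell by 3.46 and 2.70 (adjusted p = 0.0284 and 0.0414, with Cbs at 0.109 and Cth at 0.127 without day 0 replicate 3), and Cdo1, which oxidizes cysteine, by 2.09 (adjusted p = 0.0413, 0.128 without day 0 replicate 2). Cbs was 7.51, 7.27 and 7.64 at day 0 and 7.40, 2.33, 3.67 and 2.67 at day 7, at the day 0 level on replicate 1 and low on the other three. Myb, a transcription factor of crypt progenitors, was 9.12, 8.48 and 8.92 at day 0 and 9.01, 3.39, 5.37 and 6.24 at day 7 (difference -2.84 ± 0.80, adjusted p = 0.0364, 0.125 without day 0 replicate 3). It was likewise at the day 0 level on replicate 1 and lower on replicates 2 to 4. Odc1, which starts polyamine synthesis, was 8.96, 8.65 and 8.66 at day 0 and 7.68, 7.40, 7.26 and 7.45 at day 7, low on all 4 arrays (difference -1.31 ± 0.33, adjusted p = 0.024, 0.0869 without day 0 replicate 3).

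In further gene lists the calls stand beside 5.53% of all genes tested called higher and 5.06% called lower. Of 10 lymphocyte and homeostatic CXC chemokines 1 rose, the B cell chemokine Cxcl13 (2.33, adjusted p = 0.0347, 0.0965 without day 0 replicate 3), and of 14 genes of plasminogen activation and clotting 3 rose, among them F13a1, a clotting factor of macrophages (2.13, adjusted p = 0.0347, 0.0981 without day 0 replicate 1). Of 27 genes of glycolysis and hypoxia 2 rose and 2 fell, of 25 genes of the unfolded protein response 1 fell, of 10 genes of fat tissue 1 fell, and of 5 genes of squamous epithelium 1 fell. None of 12 carbonic anhydrases and aquaporins, 14 genes of enteroendocrine and tuft cells, 10 posterior Hox genes, 5 genes of the pancreas or 7 of the small intestine passed. Insl5, a hormone of distal enteroendocrine cells, was 9.70, 10.62 and 11.53 at day 0 and 8.35, 2.44, 2.85 and 11.88 at day 7 (difference -4.24 ± 1.99, adjusted p = 0.149). Adipoq, adiponectin of fat cells, was 9.40, 7.44 and 7.67 at day 0 and 3.47, 3.14, 8.68 and 1.95 at day 7 (difference -3.86, adjusted p = 0.0997). Without replicate 1 the counts of these lists were 5 higher for lymphocyte chemokines, 8 higher for clotting and 7 higher for glycolysis. Without the arrays with Prss2 signal none of the calls of these lists was made.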
